A study of Homo sapiens with 12 samples.

Results

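The genes described here are the antisense genes of the array annotation, taken as every symbol that ends in -AS1, -AS2 or -AS3 and does not start with LINC, with a mean log2 signal of at least 5.5 in at least 1 of the 4 groups of samples. Of 475 such antisense genes among 14884 genes measured, 203 passed this level, of which 192 end in -AS1, 9 in -AS2 and 2 in -AS3, and 272 did not. The sense partner is the gene whose symbol stands before the suffix; it was measured for 138 of the 203, and the other 65 partners were not analysed here. Of the 203, 124 were at the level in all 4 groups, 17 in 3 groups, 38 in 2 groups and 24 in 1 group. The members were thus chosen by their measured levels, the group means on these same arrays. A gene that reached the level in 1 group alone was admitted by the group in which it is high, so the counts below are a description and not a test of the antisense genes as a class. Just inside the level were MTUS2-AS1, DACT3-AS1 and USP30-AS1, with highest group means of 5.51, 5.54 and 5.55, and just outside were FBXL19-AS1, MATN1-AS1 and FAM13A-AS1, at 5.486, 5.497 and 5.498.

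Antisense genes are transcribed from the DNA strand opposite to that of a neighbouring or overlapping gene, and most of their products are long noncoding RNAs. Many start close to the start of the sense gene and run away from it, so that both can be transcribed from one stretch of open chromatin, while others run through the body or the end of the sense gene. JQ1 is a small molecule that fills the acetyl-lysine pockets of the BET family of bromodomain proteins and displaces them from chromatin, where they support transcription by RNA polymerase II.

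Total RNA was hybridised to 12 arrays of the Human Gene 2.0 ST type, with 4 groups of 3, and the number of arrays limits the precision. HCC70 and MDA-MB-231, a pair of established human triple-negative breast cancer cell lines, were each kept for 72 hours in 500 nM JQ1 or in vehicle (0.1% DMSO), and the labels give no genetic change for any group. Nothing in the labels tells whether the 3 samples in a group were grown apart, so each p-value rests on the spread among these samples, which may be technical. Correlations between arrays of the same group were 0.989 to 0.995, and replicate 3 of HCC70 JQ1, MDA-MB-231 JQ1 and MDA-MB-231 vehicle was the array least like its group, by a small margin (mean r of 0.991, 0.989 and 0.990 with the other arrays). Of the markers of the lines, EPCAM averaged 10.6 with JQ1 and 10.3 with vehicle in HCC70, and 5.67 with JQ1 and 7.41 with vehicle in MDA-MB-231, and AXL lay at 5.87 and 5.70 in HCC70 and at 12.6 and 12.5 in MDA-MB-231 in the same order. ESR1 and PGR averaged between 3.64 and 5.09 in every group. Of the other cell types, PECAM1 and VWF (endothelium) averaged 4.41 to 5.21 and CSF1R (macrophages) 5.92 to 6.37, with a change of -0.45 with JQ1 in MDA-MB-231 (adjusted p = 0.0317) whose part in the results was not tested, and the other blood and stromal markers were not analysed here. Because these are bulk samples, fewer cells with a transcript and less of it per cell cannot be told apart.

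In HCC70, 22 of the 203 antisense genes were higher and 22 were lower with JQ1 than with vehicle, 21.7% in all (limma, adjusted p under 0.05 over all genes measured). Among all genes measured 21.7% were called, 9.18% higher and 12.5% lower. In MDA-MB-231, 28 were higher and 27 lower, 27.1% in all, against 27.8% of all genes measured, 10.8% higher and 17.0% lower. Among the 10284 genes of any kind that met the same level, 30.0% were called in HCC70 and 37.4% in MDA-MB-231. The share of antisense genes called was thus close to that of all genes. It was below that of the genes that met the level. The antisense genes had a median signal of 5.97, against 6.25 for all genes measured. The part of signal level in these shares was not tested. Their median log2 change was 0.03 in HCC70 and 0.08 in MDA-MB-231, beside 0.01 and 0.02 over all genes. The changes ran between -1.86 and 1.23 in HCC70, with quartiles of -0.17 and 0.22, and between -2.31 and 1.03 in MDA-MB-231, with quartiles of -0.14 and 0.23. Taking only the 165 antisense genes whose mean over the 12 arrays reached the level, a choice that favours no group, 22 were higher and 14 lower in HCC70 and 24 were higher and 18 lower in MDA-MB-231. The split between rises and falls depends on the scaling. With each array centred on its median, 35 antisense genes were higher and 16 lower in HCC70 and 38 higher and 21 lower in MDA-MB-231, and with quantile normalization 31 and 18 in HCC70 and 38 and 23 in MDA-MB-231. Over all genes measured, 1366 were higher and 1863 lower in HCC70 and 1607 and 2532 in MDA-MB-231 before rescaling. These became 1925 and 1505, and 2185 and 2091, with centring. With quantile normalization they became 1749 and 1780, and 2270 and 2148, so the shift towards rises was seen over all genes as well.

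**Figure D1:**
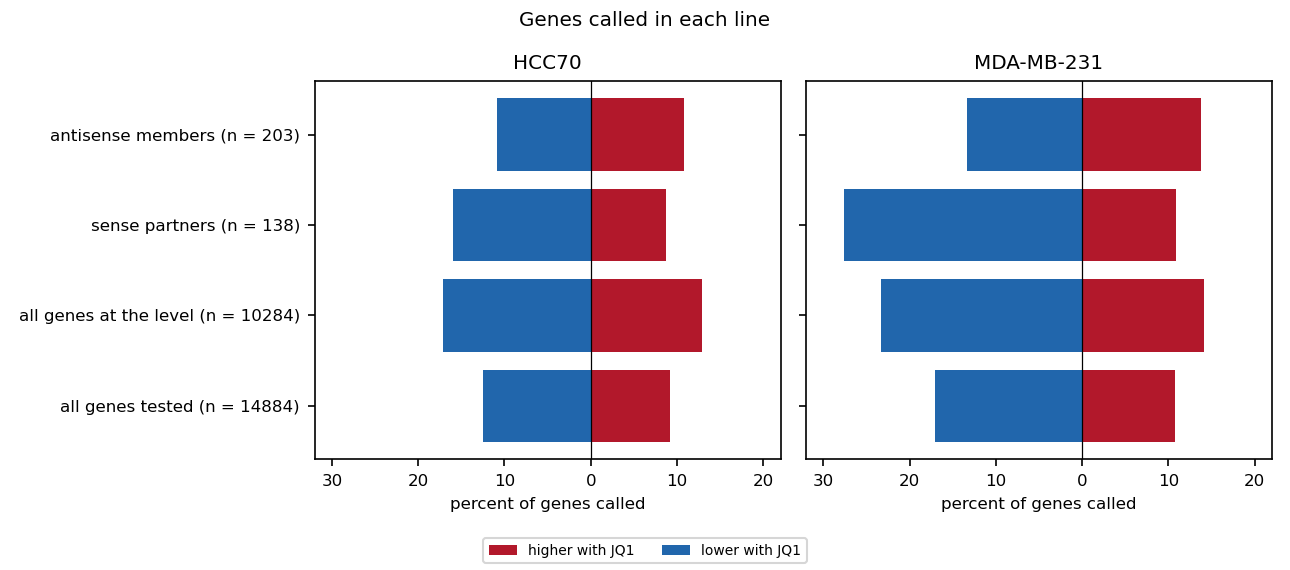
Percent of genes called higher (right of 0, red) and lower (left of 0, blue) with JQ1 than with vehicle, in HCC70 and in MDA-MB-231, for the 203 antisense genes, their 138 measured sense partners, the 10284 genes of any kind at the same level and all 14884 genes. In MDA-MB-231, without rescaling, the antisense genes have 13.3% of genes lower, the sense partners 27.5%, the genes at the same level 23.3% and all genes 17.0%.

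Of the 138 sense partners, which had a median signal of 7.14, more were called lower than higher. In HCC70, 12 were higher and 22 lower with JQ1 (8.70% and 15.9%), near the 9.18% and 12.5% of all genes and the 12.9% and 17.1% of genes at the level. In MDA-MB-231, 15 were higher and 38 lower (10.9% and 27.5%), beside 10.8% and 17.0% of all genes and 14.1% and 23.3% of genes at the level. The median log2 changes were -0.02 and -0.04. With arrays centred on their medians the sense genes numbered 20 higher and 14 lower in HCC70 and 18 higher and 28 lower in MDA-MB-231, and with quantile normalization 18 and 23 in HCC70 and 24 and 28 in MDA-MB-231, so that falls outnumbered rises under both scalings in MDA-MB-231 but not with centring in HCC70. In each line 82 of the 138 pairs (59.4%) had changes of the same sign. Across the 138 pairs the antisense change and the sense change correlated at r = 0.22 (Spearman's rank correlation 0.20) in HCC70 and at r = 0.28 (rank correlation 0.27) in MDA-MB-231. The points share the same 6 arrays within a line, and the values describe how the pairs lie and are no test. Without the 2 pairs farthest from the median antisense change r was 0.19 in HCC70 and 0.24 in MDA-MB-231.

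In most pairs the test called at most 1 of the 2 genes. Neither was called in 82 pairs in HCC70 and in 62 in MDA-MB-231. Only the antisense gene was called in 22 pairs in HCC70 and 23 in MDA-MB-231, and only the sense gene in 25 and 38. Both genes were called in the same direction in 8 pairs in HCC70, of which 3 were higher and 5 lower, and in 10 pairs in MDA-MB-231, of which 4 were higher and 6 lower. They were called in opposite directions in 1 pair in HCC70 and in 5 pairs in MDA-MB-231. In these 138 pairs the antisense gene was higher in 18 and lower in 13 in HCC70, and in 21 and 17 in MDA-MB-231. The sense gene was higher in 12 and lower in 22 in HCC70, and in 15 and 38 in MDA-MB-231. Calls unrelated within a pair would also give some shared and some opposite pairs. Whether the counts differ from that was not tested. The split of the shared calls depends on the scaling and the level. With arrays centred on their medians, both genes were higher in 5 pairs and lower in 1 in HCC70, and in 7 and 6 in MDA-MB-231. Among pairs whose antisense gene reached the level by its mean over the 12 arrays, these were 3 and 2, and 3 and 4.

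**Figure D2:**
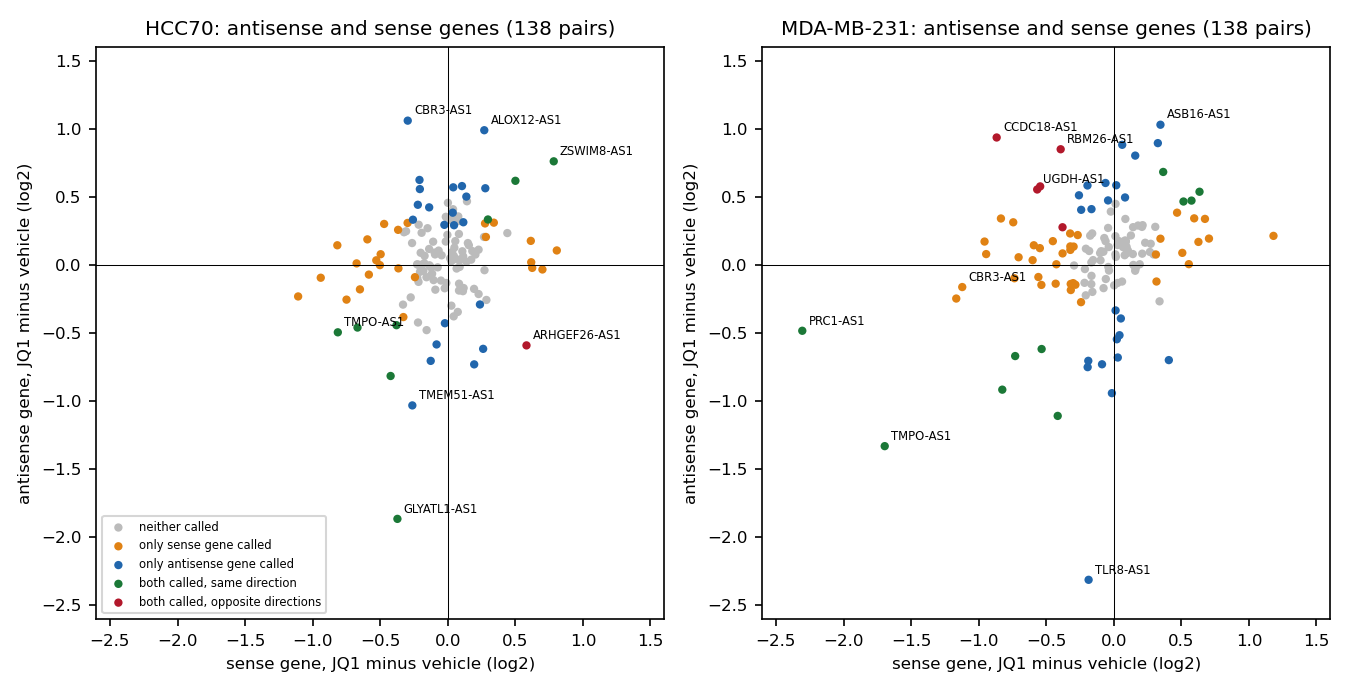
Log2 change with JQ1 (JQ1 minus vehicle) of the antisense gene (vertical axis) against that of its sense gene (horizontal axis) for 138 pairs in HCC70 (left) and MDA-MB-231 (right), 1 point per pair, coloured by which of the genes was called. The pairs spread widely about the centre (r = 0.22 and 0.28), and the pairs called in opposite directions in MDA-MB-231 all lie to the upper left of the centre.

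TMPO-AS1 and TMPO were lower with JQ1 in both lines. TMPO encodes the lamina-associated polypeptide LAP2, a protein of the nuclear lamina. By the RefSeq annotation of GRCh38.p14 they are on chromosome 12, TMPO on the plus and TMPO-AS1 on the minus strand, with starts within 1000 bases of each other. The start of TMPO-AS1 lies inside TMPO, so the genes overlap across the TMPO start, and signal shared between them was not tested. Because both genes moved together, the 250 bases before each start are shown 5′ to 3′ on the strand of the gene, from RefSeq (GRCh38.p14), at chr12:98516227-98516476 (minus strand) for TMPO-AS1 and at chr12:98515323-98515572 (plus strand) for the first of the listed TMPO starts. Capitals mark matches to GGGCGG (the letters bound by SP1) and CCAAT on either strand.
TMPO-AS1: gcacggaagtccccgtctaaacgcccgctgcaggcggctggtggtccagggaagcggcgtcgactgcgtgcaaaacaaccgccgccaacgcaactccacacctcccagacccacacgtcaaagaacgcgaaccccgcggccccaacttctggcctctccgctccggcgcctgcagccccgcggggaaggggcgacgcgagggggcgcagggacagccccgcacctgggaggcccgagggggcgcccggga
TMPO: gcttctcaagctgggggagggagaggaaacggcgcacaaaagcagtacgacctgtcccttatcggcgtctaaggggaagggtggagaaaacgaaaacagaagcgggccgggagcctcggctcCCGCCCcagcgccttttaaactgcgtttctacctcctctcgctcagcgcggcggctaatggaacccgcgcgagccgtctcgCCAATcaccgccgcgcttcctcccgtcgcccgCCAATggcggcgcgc
Of 5 motifs searched on both strands (the E-box CACGTG, the GC box GGGCGG, the CCAAT box, the TATA box TATAAA and the AP-1 site TGACTCA), the TMPO window holds 1 GGGCGG and 2 CCAAT and the TMPO-AS1 window none. In windows of 300 bases (250 before and 50 after a start), GGGCGG was found in 53.5% of 187 windows of the 163 antisense genes with an entry, against 45.0% of all 35116 windows. CCAAT was found in 29.4% against 34.6%, CACGTG in 10.2% against 7.26%, TGACTCA in 4.28% against 4.95% and TATAAA in 4.81% against 11.5%. These are matches of letters and no evidence of binding.

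TMPO-AS1 had log2 signals of 7.18, 7.06 and 7.00 in HCC70 JQ1 arrays against 7.48, 7.62 and 7.62 in HCC70 vehicle arrays. In MDA-MB-231 it had 6.72, 6.89 and 6.74 with JQ1 against 8.39, 8.12 and 7.82 with vehicle. In both lines every JQ1 array lay below every vehicle array. The log2 change was -0.49 in HCC70 (adjusted p = 0.0126) and -1.33 in MDA-MB-231 (adjusted p = 5.22e-06). The fall in HCC70 was smaller, by 0.84 ± 0.178 (SE) on the log2 scale (limma, adjusted p = 0.00674). TMPO itself had 8.82, 8.65 and 8.51 with JQ1 against 9.45, 9.51 and 9.45 with vehicle in HCC70, and 7.85, 7.73 and 7.48 with JQ1 against 9.41, 9.39 and 9.35 with vehicle in MDA-MB-231, again without overlap. Its log2 changes were -0.81 and -1.70 in HCC70 and MDA-MB-231 (adjusted p = 0.000132 and 1.35e-07), and they too differed between the lines, by 0.88 (adjusted p = 0.00162).

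PAXIP1-AS2 and PAXIP1 were the other pair called in the same direction in both lines. PAXIP1 encodes PTIP, a subunit of the MLL3 and MLL4 histone methyltransferase complexes. PAXIP1-AS2 changed by -0.44 in HCC70 (adjusted p = 0.0490) and -0.67 in MDA-MB-231 (adjusted p = 0.00405), and PAXIP1 by -0.38 (adjusted p = 0.0244) and -0.73 (adjusted p = 0.000246). In HCC70 the call of PAXIP1-AS2 was lost without any 1 of the 6 HCC70 arrays, of MDA-MB-231 JQ1 replicate 3 or of MDA-MB-231 vehicle replicates 2 or 3 (adjusted p 0.0520 to 0.149). That of PAXIP1 was lost without JQ1 replicate 1 or 3 or vehicle replicate 2 or 3 of HCC70 (adjusted p 0.0692 to 0.0842).

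The other pairs that fell together in MDA-MB-231 were FOXN3-AS1, LOXL1-AS1, PRC1-AS1 and TMEM254-AS1 with their sense genes. LOXL1 encodes an enzyme that cross-links elastin and collagen. LOXL1-AS1 had 6.57, 5.94 and 6.82 in JQ1 arrays against 7.44, 7.36 and 7.27 in vehicle arrays of MDA-MB-231, and LOXL1 had 6.48, 6.58 and 6.37 against 7.45, 7.25 and 7.20, with every JQ1 array below every vehicle array. The log2 changes were -0.92 ± 0.189 for the antisense gene (SE, adjusted p = 0.00266) and -0.82 ± 0.116 for the sense gene (adjusted p = 0.000154). PRC1 encodes the protein that bundles microtubules of the central spindle in dividing cells. PRC1-AS1, which lies within PRC1 on the other strand, changed by -0.48 (adjusted p = 0.0122) in MDA-MB-231, against -2.31 for PRC1 (adjusted p = 5.45e-09). The call of PRC1-AS1 was lost without MDA-MB-231 JQ1 replicate 2 or vehicle replicate 2 (adjusted p = 0.0503 and 0.0588), and that of TMEM254 (-0.53) without JQ1 replicate 3 or vehicle replicate 1 or 2 (adjusted p 0.0540 to 0.0710). In HCC70 the changes of PRC1-AS1 and PRC1 were -0.23 (adjusted p = 0.253) and -1.11 (adjusted p = 3.80e-06).

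NEBL-AS1, SNAI3-AS1, ARHGEF26-AS1 and ZBTB11-AS1 rose with their sense genes in MDA-MB-231. NEBL encodes the actin-binding protein nebulette, and ZBTB11 a zinc finger protein. NEBL-AS1 changed by 0.47 and NEBL by 0.52 (adjusted p = 0.00246 and 0.00549), and ZBTB11-AS1 by 0.47 and ZBTB11 by 0.57 (adjusted p = 0.00272 and 0.000226). SNAI3, a gene of the Snail family of transcription factors, changed by 0.37 (adjusted p = 0.0378) beside 0.68 for SNAI3-AS1 (adjusted p = 0.000781). The call of SNAI3 was lost without any 1 of the 3 MDA-MB-231 JQ1 arrays or vehicle replicate 1 or 2 (adjusted p 0.0758 to 0.142), and had an adjusted p of 0.0764 with the replicate number as a block within each line.

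In HCC70, ZSWIM8-AS1, KDM4A-AS1 and WAC-AS1 rose with their sense genes. KDM4A encodes a histone lysine demethylase. ZSWIM8-AS1 had 6.69, 6.49 and 6.54 with JQ1 against 5.83, 5.93 and 5.67 with vehicle, and ZSWIM8, the receptor of a ubiquitin ligase that acts on Argonaute, had 7.62, 7.61 and 7.57 against 6.71, 6.93 and 6.80. The JQ1 arrays were the higher ones for both genes, with no overlap. The log2 changes were 0.76 for ZSWIM8-AS1 and 0.78 for ZSWIM8 (adjusted p = 0.000156 and 4.91e-05). By the annotation ZSWIM8-AS1 lies inside ZSWIM8, and since the labels do not give the strand that each probe reads, signal shared between overlapping genes was not tested. KDM4A-AS1 changed by 0.62 and KDM4A by 0.50 (adjusted p = 0.000703 and 0.000781). WAC-AS1 and WAC changed by 0.33 and 0.30 (adjusted p = 0.0487 and 0.0175). The call of WAC-AS1 was lost without any 1 of 9 arrays (all but vehicle replicate 1 in HCC70, all but JQ1 replicates 1 and 3 in MDA-MB-231; adjusted p 0.0544 to 0.156), and that of WAC without HCC70 JQ1 replicate 1 or 2 or vehicle replicate 3 (adjusted p 0.0542 to 0.0832).

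GLYATL1-AS1, RNF217-AS1 and VLDLR-AS1 fell with their sense genes in HCC70. RNF217-AS1 and VLDLR-AS1 reached the level of 5.5 in vehicle-treated HCC70 alone, so their fall is in part given by how they were admitted. GLYATL1-AS1 had 5.88, 5.66 and 5.56 with JQ1 against 7.79, 7.47 and 7.43 with vehicle, a log2 change of -1.86 (adjusted p = 3.79e-06). GLYATL1, named for its likeness to glycine N-acyltransferase, had 4.69, 4.36 and 4.46 against 4.85, 5.05 and 4.73, a change of -0.37 that ends below the lower quartile of genes on these arrays and is read as a lower bound (adjusted p = 0.0299). For both genes the JQ1 arrays lay below the vehicle arrays. The call of GLYATL1 was lost without JQ1 replicate 2 or 3 or vehicle replicate 1 or 2 of HCC70 (adjusted p 0.0658 to 0.135). RNF217-AS1 changed by -0.82 (adjusted p = 0.000156) and RNF217, a ubiquitin ligase gene, by -0.42 (adjusted p = 0.0453). The RNF217 call was lost without any 1 of 7 arrays (all HCC70 arrays but vehicle replicate 1, and replicate 1 of JQ1 and of vehicle in MDA-MB-231; adjusted p 0.0517 to 0.151). VLDLR encodes a receptor for triglyceride-rich lipoproteins and reelin. It changed by -0.67 in HCC70 (adjusted p = 6.76e-05), beside -0.46 for VLDLR-AS1 (adjusted p = 0.0489). A second transcript cluster of VLDLR-AS1, of mean signal 5.02 against 5.39, changed by -0.999 in HCC70 (adjusted p = 0.00403 with all clusters tested). With all clusters tested, the brighter cluster was not called there (adjusted p = 0.115). The VLDLR-AS1 call was lost without any 1 of the 6 HCC70 arrays, any 1 of the 3 MDA-MB-231 JQ1 arrays or MDA-MB-231 vehicle replicate 1 (adjusted p 0.0543 to 0.128).

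CCDC18, RBM26, RNF213, UGDH and TTC28 gave the pairs in which the antisense gene rose and the sense gene fell in MDA-MB-231. CCDC18-AS1 had 8.70, 8.64 and 8.46 with JQ1 against 7.69, 7.66 and 7.63 with vehicle, while CCDC18, a coiled-coil protein gene, had 7.07, 6.81 and 6.61 against 7.66, 7.85 and 7.58. All 3 JQ1 arrays were above the vehicle arrays for the antisense gene and below them for the sense gene. The changes were 0.94 ± 0.130 (SE, adjusted p = 0.000135) and -0.87 ± 0.129 (adjusted p = 0.000245). UGDH encodes the enzyme that oxidises UDP-glucose to UDP-glucuronate, a building block of hyaluronan. UGDH-AS1 had 6.42, 6.43 and 6.42 with JQ1 against 5.80, 5.72 and 6.09 with vehicle, a change of 0.55 (adjusted p = 0.00116), and UGDH had 9.15, 9.12 and 9.09 against 9.77, 9.67 and 9.63, a change of -0.57 (adjusted p = 0.000489). The arrays of the groups did not overlap for either gene.

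RBM26-AS1 rose by 0.85 (adjusted p = 0.000535) and RNF213-AS1 by 0.58 (adjusted p = 0.00538) in MDA-MB-231. Their sense genes, which encode an RNA-binding protein and a large ubiquitin ligase, fell by 0.39 (RBM26, adjusted p = 0.00702) and 0.54 (RNF213, adjusted p = 0.000230). A second, dimmer transcript cluster of RBM26-AS1 changed by 0.20 in MDA-MB-231. TTC28-AS1 changed by 0.28 and TTC28 by -0.38 (adjusted p = 0.0439 and 0.0365). Both TTC28 calls were among the least stable: that of TTC28-AS1 was lost without any 1 of 9 arrays (all MDA-MB-231 arrays but JQ1 replicate 3, and HCC70 JQ1 replicate 1 or any HCC70 vehicle array; adjusted p 0.0537 to 0.157) and had an adjusted p of 0.0709 with a replicate block within each line, and that of TTC28 without MDA-MB-231 JQ1 replicate 2 or 3 or vehicle replicate 1 or 2 (adjusted p 0.0916 to 0.143).

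In HCC70, UGDH also fell, by 0.58 (adjusted p = 0.000542), while UGDH-AS1 stood at 5.71, 5.57 and 5.79 with JQ1 against 5.84, 5.71 and 5.72 with vehicle, with overlapping arrays and a change of -0.07 (adjusted p = 0.731). The JQ1 effect on UGDH-AS1 was lower in HCC70 than in MDA-MB-231 by 0.62 (adjusted p = 0.0105), and that on UGDH differed by -0.02 (adjusted p = 0.953). CCDC18-AS1 had 7.38, 7.31 and 6.91 with JQ1 against 7.61, 7.46 and 7.24 with vehicle in HCC70, again overlapping, a change of -0.24 (adjusted p = 0.250).

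The pair called in opposite directions in HCC70 was ARHGEF26-AS1 and ARHGEF26, a gene for a guanine nucleotide exchange factor. ARHGEF26-AS1 had 5.83, 5.75 and 5.55 with JQ1 against 6.50, 5.86 and 6.54 with vehicle in HCC70, and ARHGEF26 had 8.59, 8.57 and 8.38 against 7.93, 7.95 and 7.91. For both genes the groups did not overlap, though the antisense arrays came close. The changes were -0.59 (adjusted p = 0.0317) and 0.58 (adjusted p = 0.00102). In MDA-MB-231 the antisense gene had 5.14, 4.69 and 5.01 with JQ1 against 4.61, 4.24 and 4.37 with vehicle, a change of 0.54 (adjusted p = 0.0410) from a level below the lower quartile, beside 0.63 for ARHGEF26 (adjusted p = 0.000384), and the groups did not overlap. ARHGEF26-AS1 was the antisense gene called in opposite directions in the 2 lines. Its call was lost without HCC70 JQ1 replicate 2 or 3 or vehicle replicate 1 or 3 in HCC70 (adjusted p 0.0705 to 0.134). In MDA-MB-231 it was lost without JQ1 replicate 1 or 3, vehicle replicate 2 or 3 or HCC70 JQ1 replicate 2 (adjusted p 0.0538 to 0.140).

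**Figure D3:**
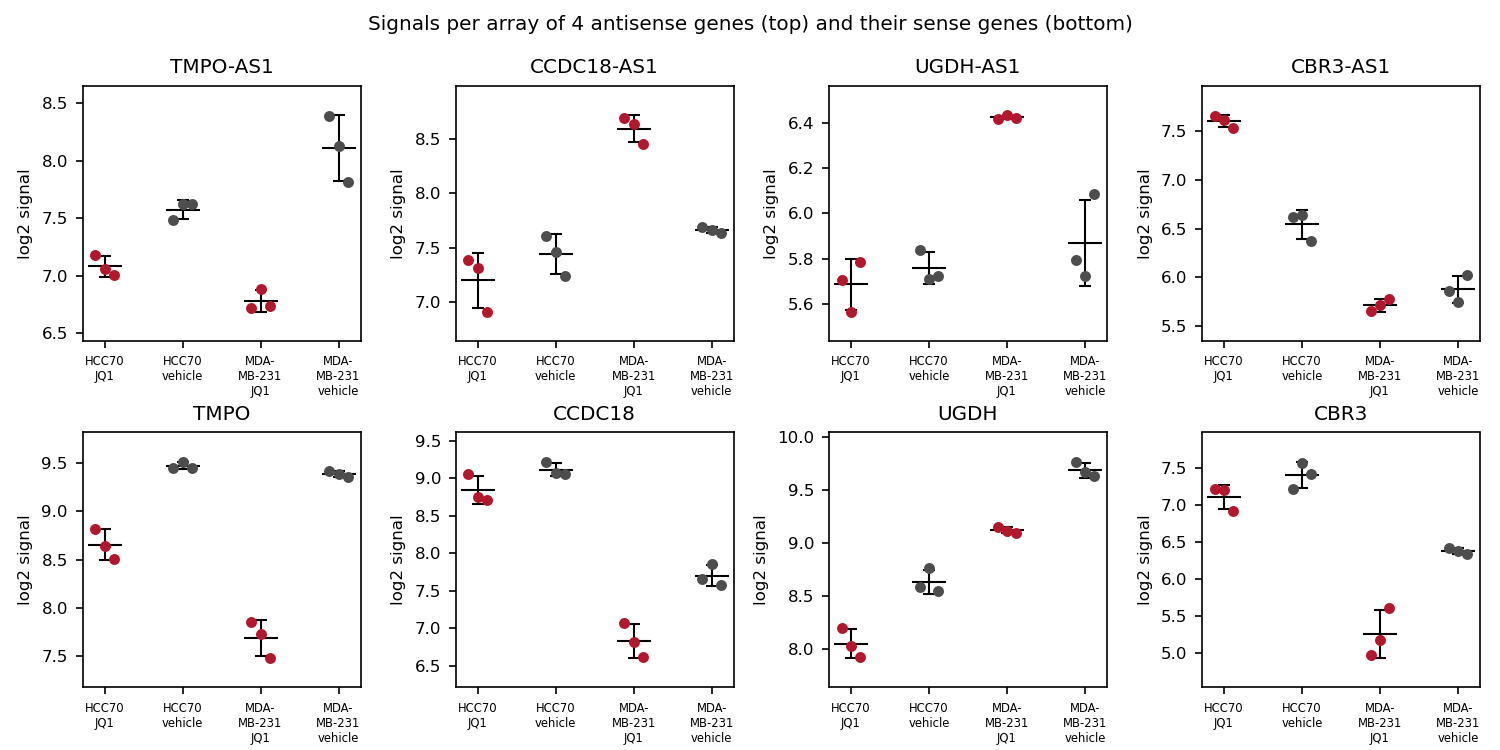
Log2 signal per array of TMPO-AS1, CCDC18-AS1, UGDH-AS1 and CBR3-AS1 (top) and of their sense genes (bottom) in HCC70 JQ1, HCC70 vehicle, MDA-MB-231 JQ1 and MDA-MB-231 vehicle, with each group's mean and SD over 3 arrays (horizontal line and bar) and JQ1 in red. Vertical scales differ between panels. In MDA-MB-231 the JQ1 arrays lie above the vehicle arrays for CCDC18-AS1 and UGDH-AS1 and below them for CCDC18 and UGDH.

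ATP2B1-AS1, CBR3-AS1 and ALOX12-AS1 had the largest rises in HCC70, and the sense genes measured, CBR3 and ALOX12, were not called there. ATP2B1-AS1 had 6.90, 6.79 and 6.67 with JQ1 against 5.52, 5.82 and 5.33 with vehicle, a change of 1.23 ± 0.136 (SE, adjusted p = 3.45e-05). CBR3-AS1 had 7.66, 7.62 and 7.54 with JQ1 against 6.62, 6.64 and 6.37 with vehicle, a change of 1.06 ± 0.099 (adjusted p = 9.05e-06). CBR3, a carbonyl reductase gene, had 7.21, 7.20 and 6.92 with JQ1 against 7.22, 7.57 and 7.42 with vehicle in HCC70, and its change of -0.30 was not called (adjusted p = 0.209). In MDA-MB-231 it was CBR3 that fell, by 1.12 (adjusted p = 9.79e-05), while CBR3-AS1 had 5.65, 5.71 and 5.78 with JQ1 against 5.86, 5.74 and 6.02 with vehicle, a change of -0.16 (adjusted p = 0.265). The CBR3 arrays did not overlap in either line, narrowly so in HCC70, and those of CBR3-AS1 overlapped in MDA-MB-231.

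ALOX12-AS1 spans ALOX12, the gene of arachidonate 12-lipoxygenase, by the annotation. It had 6.56, 6.43 and 6.55 with JQ1 against 5.72, 5.31 and 5.54 with vehicle in HCC70, and 7.47, 7.62 and 7.25 with JQ1 against 6.85, 6.68 and 6.41 with vehicle in MDA-MB-231. The JQ1 arrays were above the vehicle arrays in both lines, and the changes were 0.99 (adjusted p = 0.000205) and 0.80 (adjusted p = 0.000688). ALOX12 changed by 0.27 and 0.16 in the same lines and was not called (adjusted p = 0.177 and 0.411). Of the other large rises in HCC70, ZBED5-AS1 changed by 0.88 (adjusted p = 0.000796), HMGN3-AS1 by 0.62 (adjusted p = 0.0177) and THAP7-AS1 by 0.58 (adjusted p = 0.0245). The HMGN3-AS1 call was lost without HCC70 JQ1 replicate 1 or 2 or vehicle replicate 2 or 3 (adjusted p 0.0517 to 0.0739), and that of THAP7-AS1 without any HCC70 array but JQ1 replicate 3 (adjusted p 0.0539 to 0.105).

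Of the falls in HCC70, TMEM51-AS1 had 6.80, 6.38 and 6.13 with JQ1 against 7.38, 7.67 and 7.37 with vehicle, a change of -1.03 ± 0.175 (SE, adjusted p = 0.000912). Its sense gene TMEM51, a membrane protein gene, changed by -0.26 in HCC70 (adjusted p = 0.211) and by -0.83 in MDA-MB-231 (adjusted p = 0.000405), where TMEM51-AS1 changed by 0.34 (adjusted p = 0.180). CPVL-AS2 changed by -0.73 in HCC70 (adjusted p = 0.00139). DLGAP1-AS1, PRRT3-AS1, PRR34-AS1 and C10orf95-AS1 fell in HCC70 by 0.76, 0.73, 0.78 and 0.71 on the log2 scale (adjusted p 0.000289 to 0.00648) and were called lower in MDA-MB-231 as well. Second, dimmer transcript clusters of PRR34-AS1 and C10orf95-AS1 changed by -0.28 and -0.10 in HCC70 and were not called (adjusted p = 0.286 and 0.721 with all clusters tested).

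In MDA-MB-231 the largest rise was that of ASB16-AS1, with 8.94, 8.69 and 8.69 in JQ1 arrays against 7.77, 7.95 and 7.52 in vehicle arrays, a change of 1.03 ± 0.111 (SE, adjusted p = 1.56e-05). ASB16, which encodes a protein with ankyrin repeats and a SOCS box, changed by 0.35 (adjusted p = 0.105). A1BG-AS1 had 6.96, 6.77 and 6.47 with JQ1 against 5.91, 5.90 and 5.70 with vehicle, a change of 0.89 (adjusted p = 0.000471), and its sense gene A1BG, which encodes a plasma glycoprotein, changed by 0.33 (adjusted p = 0.142). JMJD1C-AS1 had 7.19, 7.49 and 7.46 with JQ1 against 6.74, 6.12 and 6.64 with vehicle, a change of 0.88 (adjusted p = 0.000872), and JMJD1C, a gene of the Jumonji family of demethylases, changed by 0.06 (adjusted p = 0.602). The JQ1 arrays lay above the vehicle arrays for each of these antisense genes. PSMG3-AS1 rose by 0.66 (adjusted p = 0.00166).

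The largest fall in MDA-MB-231 was that of TLR8-AS1, with 4.07, 4.20 and 3.88 in JQ1 arrays against 6.62, 6.44 and 6.03 in vehicle arrays. The change of -2.31 ± 0.157 (SE, adjusted p = 2.75e-07) ends below the lower quartile of genes and is read as a lower bound of the fall. TLR8, an endosomal receptor for single-stranded RNA, had 3.63, 3.27 and 3.54 with JQ1 against 3.46, 3.74 and 3.79 with vehicle, below that quartile on every array, and its change of -0.19 was not called (adjusted p = 0.359). TLR8-AS1 reached the level of 5.5 in vehicle-treated MDA-MB-231 alone, as did PRKG1-AS1, FOXN3-AS1 and SLCO4A1-AS1, so their fall is in part given by how they were admitted.

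PRKG1-AS1 had 4.87, 5.41 and 4.61 with JQ1 against 6.16, 6.26 and 5.92 with vehicle in MDA-MB-231, a change of -1.16 (adjusted p = 0.000185). FOXN3-AS1 had 5.03, 5.08 and 4.80 against 6.21, 6.16 and 5.86, a change of -1.11 (adjusted p = 0.000173), and FOXN3, a forkhead repressor gene, changed by -0.41 (adjusted p = 0.00242). For both antisense genes every JQ1 array was below every vehicle array. SLCO4A1-AS1 changed by -0.77 (adjusted p = 0.00864). PRR7-AS1 had 6.34, 6.58 and 6.46 with JQ1 against 7.51, 7.50 and 7.20 with vehicle, a change of -0.94 (adjusted p = 9.49e-05). PRR7, its sense gene on the other strand, changed by -0.01 (adjusted p = 0.949). TGFB2-AS1 changed by -0.95 (adjusted p = 0.00170).

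The difference of the JQ1 effects, HCC70 minus MDA-MB-231, was called for 26 of the 203 antisense genes (12.8%), 13 more positive and 13 more negative in HCC70, against 15.0% of all genes measured and 20.2% of genes at the same level. Over all genes the shares were 9.02% more positive and 5.95% more negative. The most positive differences were those of TLR8-AS1, PRKG1-AS1, CBR3-AS1, ZNF674-AS1 and ATP2B1-AS1, between 0.99 and 2.47, and the most negative those of GLYATL1-AS1, TMEM51-AS1, CCDC18-AS1, ARHGEF26-AS1 and A1BG-AS1, between -2.14 and -1.03. TLR8-AS1 and PRKG1-AS1 lay below the lower quartile of genes on every HCC70 array, and GLYATL1-AS1 on every MDA-MB-231 array, so a further fall there could hardly be measured. TLR8-AS1 and PRKG1-AS1 reached the level of 5.5 in vehicle-treated MDA-MB-231 alone, so their differences are in part given by how they were admitted. Taking only the 165 antisense genes whose mean over the 12 arrays reached the level, the difference was more positive for 9 and more negative for 8. ZNF674-AS1 had 4.33, 4.44 and 4.58 with JQ1 against 3.97, 3.84 and 4.14 with vehicle in HCC70, and 6.22, 6.16 and 5.71 with JQ1 against 7.05, 6.76 and 6.38 with vehicle in MDA-MB-231. Its changes were 0.47 (adjusted p = 0.0730), at levels below the lower quartile, and -0.70 (adjusted p = 0.00796), and they differed by 1.17 ± 0.241 (SE, adjusted p = 0.00566).

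In both lines together 82 antisense genes were called in at least 1 line, and 16 were called in the same direction in both, 7 higher and 9 lower (15 and 5 with quantile normalization, 14 and 6 with centring). That is 36.4% of the 44 called in HCC70 and 29.1% of the 55 called in MDA-MB-231. Among all genes measured 11.0% were called in the same direction in both lines, 50.6% of those called in HCC70 and 39.5% of those called in MDA-MB-231. The antisense genes higher in both were ALOX12-AS1, ASB16-AS1, UBAC2-AS1, PSMA3-AS1, TMEM44-AS1, THUMPD3-AS1 and NEBL-AS1. Those lower in both were TMPO-AS1, DLGAP1-AS1, PRRT3-AS1, FOXD2-AS1, PAXIP1-AS2, MCM3AP-AS1, PRR34-AS1, C10orf95-AS1 and FGD5-AS1. These 16, and the pairs called in the same direction, were named after their values were seen. The sense partners gave 23 genes called in the same direction in both lines, 6 higher and 17 lower, and 0 in opposite directions. Among all 14884 genes measured, 5566 were called in at least 1 line and 168 in opposite directions, so few genes of any kind were called in opposite directions.

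PSMA3-AS1 had 8.13, 8.10 and 8.06 with JQ1 against 7.51, 7.62 and 7.53 with vehicle in HCC70, and 8.40, 8.63 and 8.46 with JQ1 against 8.13, 8.10 and 7.88 with vehicle in MDA-MB-231. FOXD2-AS1 had 7.73, 7.54 and 7.23 with JQ1 against 8.21, 8.18 and 8.22 with vehicle in HCC70, and 6.05, 6.31 and 6.14 with JQ1 against 6.98, 7.17 and 6.55 with vehicle in MDA-MB-231. The JQ1 arrays of PSMA3-AS1 were the higher ones and those of FOXD2-AS1 the lower ones in each line. PSMA3-AS1 changed by 0.54 and 0.47 in HCC70 and MDA-MB-231 (adjusted p = 0.000915 and 0.00196) and FOXD2-AS1 by -0.70 and -0.73 (adjusted p = 0.00541 and 0.00330). UBAC2-AS1 changed by 0.57 and 0.60 (adjusted p = 0.0125 and 0.00726), TMEM44-AS1 by 0.42 and 0.40 (adjusted p = 0.0287 and 0.0296), and THUMPD3-AS1 by 0.29 and 0.41 (adjusted p = 0.0260 and 0.00271).

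Not all of these calls were stable. In MDA-MB-231, that of PRR34-AS1 (-0.37) was lost without JQ1 replicate 1 or 3 or vehicle replicate 1 or 2 (adjusted p 0.0771 to 0.0994), and that of C10orf95-AS1 (-0.47) without any 1 of 11 arrays, the exception being MDA-MB-231 JQ1 replicate 2 (adjusted p 0.0524 to 0.177). Other transcript clusters of these genes changed by -0.06 for PRR34-AS1 and 0.10 for C10orf95-AS1 in MDA-MB-231. That of TMEM44-AS1 was lost in MDA-MB-231 without JQ1 replicate 1 or 2 or vehicle replicate 3 (adjusted p 0.0652 to 0.0974). In HCC70, the call of TMEM44-AS1 was lost without any HCC70 array but vehicle replicate 2 (adjusted p 0.0552 to 0.112), that of NEBL-AS1 (0.31) without any HCC70 array (adjusted p 0.0599 to 0.104), that of THUMPD3-AS1 without JQ1 replicate 1 or 2 or vehicle replicate 1 or 3 (adjusted p 0.0591 to 0.103), and that of UBAC2-AS1 without vehicle replicate 2 or 3 (adjusted p = 0.0556 and 0.0518).

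**Figure D4:**
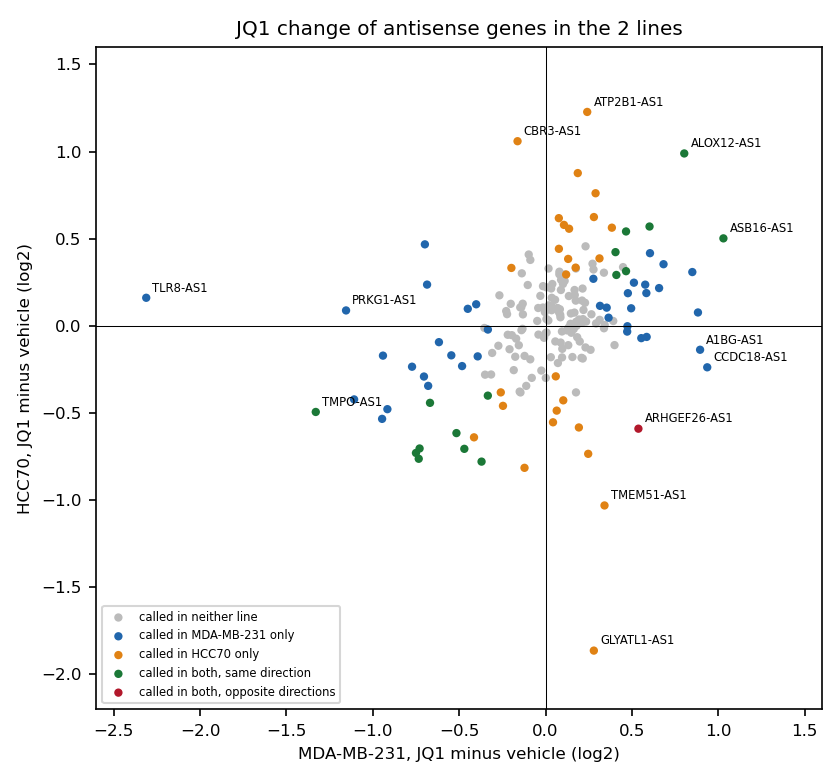
Log2 change with JQ1 (JQ1 minus vehicle) of each antisense gene in HCC70 (vertical axis) against MDA-MB-231 (horizontal axis), coloured by the lines in which it was called, with 1 Y-linked gene left out. Most points off the centre lie along 1 axis, as TLR8-AS1 and GLYATL1-AS1 do, and the 16 genes called in the same direction in both lines lie between -1.33 and 1.03.

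Antisense RNAs with a studied role were followed as a list of 28, of which 12 are among the 203, GATA3-AS1, ZEB1-AS1, DLX6-AS1 and DSCAM-AS1 were below the level, and 12 were not analysed here. TMPO-AS1, MCM3AP-AS1 and FGD5-AS1 were lower with JQ1 in both lines, and the other 9 were called in neither. Lower in both lines were 9 of the 203 antisense genes and 1025 of all 14884 genes measured. The count on this short list is a description. MCM3AP-AS1 had 6.44, 6.59 and 6.45 with JQ1 against 7.18, 7.10 and 7.05 with vehicle in HCC70, and 6.63, 6.87 and 6.39 with JQ1 against 7.21, 7.08 and 7.14 with vehicle in MDA-MB-231, without overlap in either line. The changes were -0.62 (adjusted p = 0.00143) and -0.52 (adjusted p = 0.00360). MCM3AP, the gene of the messenger RNA export factor GANP, changed by 0.26 (adjusted p = 0.0739) and 0.04 (adjusted p = 0.793). FGD5-AS1 changed by -0.40 in HCC70 (adjusted p = 0.00542) and by -0.33 in MDA-MB-231 (adjusted p = 0.0129), where the call was lost without vehicle replicate 2 (adjusted p = 0.0621), with quantile normalization (0.114), with each line fitted alone (0.0569) and without the 3 arrays least like their groups (0.0851).

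Some of the studied antisense RNAs lay at other levels in HCC70 than in MDA-MB-231, given here as a description, and were not called for JQ1. CDKN2B-AS1, also called ANRIL, runs through the INK4 locus of cell cycle inhibitors and binds Polycomb proteins. It had 8.43, 8.06 and 7.74 with JQ1 and 8.43, 8.44 and 8.50 with vehicle in HCC70, and between 3.83 and 4.34 on the 6 MDA-MB-231 arrays, below the lower quartile of genes. AFAP1-AS1, reported to promote invasion of tumour cells, had 8.71, 8.71 and 8.66 with JQ1 and 8.95, 8.84 and 8.94 with vehicle in HCC70, and between 5.90 and 6.32 in MDA-MB-231. HIF1A-AS2, antisense to the end of the gene of the hypoxia factor HIF1A, lay the other way, between 5.74 and 6.21 in HCC70 and between 9.19 and 9.33 in MDA-MB-231. The JQ1 changes of these genes lay between -0.38 and 0.26 in HCC70 and between 0.07 and 0.18 in MDA-MB-231 (adjusted p 0.0603 to 0.695). Over the 203 antisense genes, 28 were at the level in HCC70 groups only and 25 in MDA-MB-231 groups only.

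Of the 203 antisense genes, 74 start within 1000 bases of their sense gene on the other strand, overlapping it or not, or part from it (together called head-to-head here), 32 overlap it tail-to-tail, 21 lie inside it, 9 overlap it at the starts, 4 span it, 4 lie apart tail-to-tail and 59 could not be classed. In the 45 head-to-head pairs measured, the antisense and sense changes had the same sign in 71.1% of pairs in HCC70 (r = 0.32) and in 57.8% in MDA-MB-231 (r = 0.34, or 0.14 without the 2 pairs farthest out). In the 18 pairs with the antisense gene inside the sense gene r was 0.59 in HCC70 and 0.68 in MDA-MB-231, and in the 22 pairs overlapping tail-to-tail it was 0.21 and -0.11. Without the 2 pairs farthest out these were 0.47 and 0.60 inside the sense gene and 0.0054 and 0.07 tail-to-tail. The 8 pairs overlapping at the starts had r = -0.49 in HCC70, with 37.5% of the same sign, and 0.23 in MDA-MB-231 (-0.51 and -0.28 without 2), and the 41 pairs that could not be classed had -0.02 and 0.33. These values describe pairs measured on the same arrays and were not compared by a test.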

How the data were processed

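The deposited series table holds log2 signals of transcript clusters made by the authors. The submitters' processing notes list RMA, oligo and limma, with no version; a genome build was not given in the sources used here. Of 53617 clusters, 16098 had 1 gene symbol in the platform annotation, 0 had several and 37519 had none. Each of the 779 genes with several clusters is represented by its brightest cluster over the 12 arrays, giving 14884 genes, and 15 of the antisense genes described have several. The annotation can be old, and genome positions and strands come from RefSeq (GRCh38.p14).

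In limma 3.58.1 (R 4.3.3), lmFit and eBayes estimated the 4 group means from all 12 arrays, with two-sided tests. Contrasts compared JQ1 with vehicle within HCC70 and within MDA-MB-231 and then subtracted the MDA-MB-231 effect from the HCC70 effect. The Benjamini-Hochberg adjustment ran over all genes measured, with 0.05 as the limit of a call. An SE is that of the limma coefficient. Dim genes were kept, and a change that ends below the lower quartile of genes (4.73 to 4.87 per array) is a lower bound. The array medians were 6.16 to 6.26. The procedure was tested on simulated data. The correlations over pairs carry no test.

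The members, lists and alternatives were chosen with earlier results of these data known. Named genes are the 8 largest rises and falls in each line with their sense genes, the 5 most positive and most negative differences, a list of antisense RNAs with a studied role, the genes nearest the level, and genes or pairs called in opposite directions. One Y-linked antisense gene is counted and not named.

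Whether equal replicate numbers pair arrays was checked from the correlation of their deviations from the group means. Same-numbered arrays had r of -0.059, 0.015 and 0.070 in HCC70, which gives no pairing, and of 0.155, 0.121 and 0.362 in MDA-MB-231. There JQ1 replicate 1 also had r of 0.121 with vehicle replicate 2, so the values do not settle whether replicates 1 and 2 are pairs. In MDA-MB-231, JQ1 replicate 3 had r of -0.181 and -0.221 with vehicle replicates 1 and 2. Vehicle replicate 3 had r of -0.250 and -0.142 with JQ1 replicates 1 and 2. The arrays numbered 3 in this line thus shared deviations from their group means, and the reason was not tested. The main fit takes no account of pairs. Alternatives tried were a block on the replicate number, separate fits of the lines, trended and robust eBayes, only genes brighter than the median, averaged clusters per gene, all clusters, quantile normalization, centring on array medians, other levels for admission, each array left out in turn, and the 3 arrays least like their groups left out together.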

Additional observations from a re-analysis of the deposited data

Results flagged for a closer look

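The JQ1 effect differed between the lines by a test of the difference itself (HCC70 minus MDA-MB-231, limma, adjusted p under 0.05) for 26 antisense genes, and the 5 most positive and 5 most negative are given here. TLR8-AS1 differed by 2.47, with a change of 0.16 in HCC70 and -2.31 in MDA-MB-231. PRKG1-AS1 differed by 1.24, with changes of 0.09 and -1.16 in the same order of lines. CBR3-AS1 differed by 1.22, with 1.06 in HCC70 and -0.16 in MDA-MB-231, and ZNF674-AS1 by 1.17, with 0.47 and -0.70. ATP2B1-AS1 differed by 0.99, with 1.23 in HCC70 and 0.24 in MDA-MB-231.

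GLYATL1-AS1 differed by -2.14, with changes of -1.86 in HCC70 and 0.28 in MDA-MB-231, and TMEM51-AS1 by -1.37, with -1.03 and 0.34. CCDC18-AS1 differed by -1.17, with -0.24 in HCC70 and 0.94 in MDA-MB-231. ARHGEF26-AS1 differed by -1.13, with -0.59 and 0.54, and A1BG-AS1 by -1.03, with -0.14 and 0.89. TLR8-AS1, PRKG1-AS1 and ZNF674-AS1 are below the lower quartile of genes in HCC70, and GLYATL1-AS1 in MDA-MB-231, so a further fall in that line could hardly be measured. The call of a difference was lost for 1 of the 10, ARHGEF26-AS1, when replicate 3 of HCC70 JQ1, MDA-MB-231 JQ1 and MDA-MB-231 vehicle was left out (adjusted p = 0.0813). The groups of 3 arrays are too small for a check of single outlying arrays.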

How the results depend on the processing

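Of 101 calls of named antisense and sense genes in the 2 lines, 76 held without any 1 array and 73 in every setting run, and 0 changed sign. Among genes above the median level, 15 antisense genes were higher and 15 lower with JQ1 in MDA-MB-231, 12 were lower in HCC70, the difference was more positive for 8 and more negative for 4, and 20 sense genes were higher in HCC70. That fit left out dimmer genes, and the antisense genes had a median signal of 5.97 against 6.25 for all genes measured. Its counts are thus out of fewer than the 203 antisense genes. With the mean over the 12 arrays as the level, 14 antisense genes were lower in HCC70 and the difference was more negative for 8. With all clusters tested, 14 antisense genes were higher and 13 sense genes lower in HCC70. With centring, 35 antisense genes and 20 sense genes were higher and 14 sense genes lower in HCC70, and with quantile normalization 24 sense genes were higher in MDA-MB-231. Leaving out each array in turn gave 14 to 26 antisense genes higher and 17 to 23 lower in HCC70, 22 to 32 and 20 to 28 in MDA-MB-231, differences more positive for 9 to 16 and more negative for 9 to 15, and sense genes 9 to 14 higher and 13 to 22 lower in HCC70 and 13 to 18 and 26 to 40 in MDA-MB-231. The 14 came without HCC70 vehicle replicate 3, and the 13 without HCC70 JQ1 replicate 3 or vehicle replicate 2. With the replicate number as a block in all 12 arrays, 26 antisense genes were higher and 24 lower in HCC70 and 31 and 27 in MDA-MB-231. A block within each line, added after seeing the data, gave 22 and 23, and 32 and 27, and ended the calls of SNAI3 (adjusted p = 0.0764) and TTC28-AS1 (0.0709) in MDA-MB-231 and, in HCC70, of RBM26 (0.0512), PAXIP1-AS2 (0.101), THUMPD3-AS1 (0.0624) and WAC-AS1 (0.0714). Without replicate 3 of HCC70 JQ1, MDA-MB-231 JQ1 and MDA-MB-231 vehicle, the calls of SLCO4A1-AS1, KDM4A, SNAI3, PRR34-AS1, C10orf95-AS1, ARHGEF26-AS1, FGD5-AS1 and TMEM44-AS1 in MDA-MB-231 (adjusted p 0.0539 to 0.273) and of UBAC2-AS1, GLYATL1, RNF217, ARHGEF26-AS1 and PAXIP1-AS2 in HCC70 (0.0735 to 0.187) ended. Quantile normalization ended those of FGD5-AS1, PRR34-AS1, C10orf95-AS1, ARHGEF26-AS1 and TTC28 in MDA-MB-231 (0.0618 to 0.114) and of ARHGEF26-AS1, PAXIP1-AS2 and RNF217 in HCC70 (0.0502 to 0.0779). Centring ended those of PRR34-AS1, C10orf95-AS1 and TTC28 in MDA-MB-231 (0.0596 to 0.0793) and of ARHGEF26-AS1, PAXIP1-AS2, PAXIP1, GLYATL1, RNF217, VLDLR-AS1 and RBM26 in HCC70 (0.0516 to 0.114). Over all genes, falls were 57.7% of the genes called in HCC70 and 61.2% in MDA-MB-231, 43.9% and 48.9% with centring and 50.4% and 48.6% with quantile normalization. The cause of these shifts was not tested. For dim antisense genes the signal over background limits what a fall can show.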

Other observations

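Other noncoding RNA genes named for a neighbour or host (151 measured, such as divergent transcripts ending in -DT) were described in the same fit. In HCC70, 14 were higher and 8 lower with JQ1, and in MDA-MB-231, 16 were higher and 12 lower, beside 9.18% and 12.5%, and 10.8% and 17.0%, of all genes. TMEM30A-DT had 5.78, 5.77 and 5.75 with JQ1 against 4.85, 5.19 and 5.08 with vehicle in HCC70, and 6.57, 6.87 and 6.80 with JQ1 against 5.85, 6.05 and 5.68 with vehicle in MDA-MB-231. It rose in both lines, by 0.72 and 0.89 (adjusted p = 0.000715 and 0.000103). BACE1-AS, the antisense transcript of the beta-secretase gene, had 6.41, 6.15 and 6.08 with JQ1 against 7.92, 7.45 and 7.53 with vehicle in HCC70 and fell by 1.42 there (adjusted p = 2.62e-05), and its change of -0.30 in MDA-MB-231 was not called (adjusted p = 0.174). EOLA1-DT rose by 1.30 in MDA-MB-231 (adjusted p = 7.10e-07), against -0.01 in HCC70 (adjusted p = 0.978). These examples were chosen after their values were seen.

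The nuclear exosome and its cofactors degrade many short-lived noncoding RNAs, antisense transcripts among them. A wider list of nuclear RNA turnover genes was followed, which besides these also names XRN2, PCF11, INTS9, INTS11 and ZC3H4. Of its 19 genes measured, 5 were lower and 0 higher with JQ1 in HCC70 and 8 were lower and 0 higher in MDA-MB-231. The median changes were -0.05 and -0.23. Lower calls made up 12.5% of all genes in HCC70 and 17.0% in MDA-MB-231, and 17.1% and 23.3% of genes at the level. With quantile normalization 5 were lower and 0 higher in HCC70 and 5 and 1 in MDA-MB-231, with centring 5 and 2, and 5 and 1, and without the 3 arrays least like their groups 4 and 1, and 5 and 0. In MDA-MB-231 the calls of EXOSC1, EXOSC4 and RBM7 were lost with quantile normalization (adjusted p = 0.126, 0.0598 and 0.145), with centring (0.0875, 0.0575 and 0.0982) and without 1 of several arrays (0.0548 to 0.153). EXOSC10, the nuclear exonuclease of the complex, changed by -0.67 in HCC70 and -0.50 in MDA-MB-231 (adjusted p = 3.28e-05 and 0.000235), and EXOSC8 by -0.66 and -0.73 (adjusted p = 0.000346 and 9.63e-05). EXOSC5 and EXOSC9 were also lower in both lines, and in HCC70 each of these calls was lost without 1 of 2 arrays (vehicle replicate 2 or 3 for EXOSC5, adjusted p = 0.0629 and 0.0503, and JQ1 replicate 3 or vehicle replicate 2 for EXOSC9, adjusted p = 0.0564 and 0.0572). The part of these genes in the antisense changes was not tested.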
